A study of Mus musculus with 6 samples.

Results

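Gene promoters that overlap no CpG island were examined for DNA methylation in CD8+ T cells from LNs of mice. A promoter was taken as the window of 1000 bp on either side of the annotated 5′ end of an autosomal protein-coding gene (GENCODE annotation, mm10). A CpG island was a stretch over 200 bp long in which G and C made up over 50% of the bases and the observed/expected CpG ratio was above 0.6. A window was measured if at least 3 of its CpGs had at least 5 reads in each of the 6 libraries, and its level was the unweighted mean of the percentages of methylated reads at these CpGs. Of 20807 windows, 9116 overlapped no island, and 2126 of these (23.3%) were measured and are the promoters described here. A further 5901 windows without an island held no CpG that passed, 497 held 1 CpG, and 592 held 2 CpGs. Of the 11691 windows with an island, 10980 (93.9%) were measured, giving 13106 measured windows in all.

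The libraries were made by reduced representation bisulfite sequencing (RRBS), in which DNA is cut with MspI at CCGG and treated with bisulfite, so that methylated cytosines are still read as C. There were 2 libraries for each of 3 genotypes on the C57BL/6N strain, each library from CD8+ T cells of 1 mouse enriched with a MagniSort kit. The genotypes were WT, hSTAT5B +/T (hSTAT5B below), and hSTAT5B N642H +/T (hSTAT5BN642H below). The WT mice carried no transgene. Both transgenes encode human STAT5B, a transcription factor downstream of cytokine receptors, under the promoter of mouse Vav1, which is active throughout the blood system, and each came from 1 selected transgenic line, so that the transgene and its insertion site cannot be told apart. The mice were 13 weeks old, and the hSTAT5BN642H mice had T cell disease at that age.

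CpG islands stay free of methylation at most gene starts in most cell types. Promoters with few CpGs are instead often methylated in tissues where the gene is silent and tend to lose methylation in the lineage that uses the gene, and many genes of specialised cells, among them those of T cells, liver, muscle, and skin, have such promoters. The level of such a window therefore differs from gene to gene within a cell type, which the levels below describe, but a level is not a measure of transcription.

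To show what these promoters look like, the 250 bases before the annotated start are given for 6 genes, chosen because they hold several measured CpGs and alternate between T cell genes and genes of other tissues. The sequences are those of the gene's strand in GRCm38 (mm10) as distributed by RefSeq, and capitals mark CpGs measured in all 6 libraries. The T cell genes are Cd27 (chr6:125237011-125237260, minus strand), a costimulatory receptor, Gzma (chr13:113100982-113101231, minus strand), a granzyme of cytotoxic granules, and Ptprcap (chr19:4153354-4153603, plus strand), a partner of the phosphatase CD45. The others are Apoc2 (chr7:19677942-19678191, minus strand), a liver apolipoprotein, Nlrp5 (chr7:23385639-23385888, plus strand), an oocyte gene, and Olfr1033 (chr2:86020383-86020632, plus strand), an odorant receptor.
Cd27: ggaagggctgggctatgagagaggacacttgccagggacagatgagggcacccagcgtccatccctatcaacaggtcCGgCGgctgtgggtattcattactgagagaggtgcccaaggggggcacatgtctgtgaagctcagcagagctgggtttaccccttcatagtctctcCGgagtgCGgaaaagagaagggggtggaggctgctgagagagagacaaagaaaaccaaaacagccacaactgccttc
Gzma: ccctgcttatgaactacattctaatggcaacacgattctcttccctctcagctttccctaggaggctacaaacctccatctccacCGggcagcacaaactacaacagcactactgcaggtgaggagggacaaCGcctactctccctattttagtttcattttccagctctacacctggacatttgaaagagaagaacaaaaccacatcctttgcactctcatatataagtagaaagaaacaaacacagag
Ptprcap: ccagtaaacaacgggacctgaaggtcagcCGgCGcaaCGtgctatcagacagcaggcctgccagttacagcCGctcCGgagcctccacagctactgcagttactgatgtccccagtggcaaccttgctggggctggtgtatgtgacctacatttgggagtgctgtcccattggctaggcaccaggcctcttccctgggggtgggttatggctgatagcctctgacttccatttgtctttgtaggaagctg
Apoc2: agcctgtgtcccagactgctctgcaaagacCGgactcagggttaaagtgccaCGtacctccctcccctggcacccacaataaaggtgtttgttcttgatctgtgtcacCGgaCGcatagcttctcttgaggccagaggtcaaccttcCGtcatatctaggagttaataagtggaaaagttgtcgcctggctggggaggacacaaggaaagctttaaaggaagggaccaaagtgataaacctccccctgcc
Nlrp5: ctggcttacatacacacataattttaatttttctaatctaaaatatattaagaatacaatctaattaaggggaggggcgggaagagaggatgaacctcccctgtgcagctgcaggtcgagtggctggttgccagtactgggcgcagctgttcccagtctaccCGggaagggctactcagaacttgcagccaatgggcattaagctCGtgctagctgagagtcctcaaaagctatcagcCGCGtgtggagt
Olfr1033: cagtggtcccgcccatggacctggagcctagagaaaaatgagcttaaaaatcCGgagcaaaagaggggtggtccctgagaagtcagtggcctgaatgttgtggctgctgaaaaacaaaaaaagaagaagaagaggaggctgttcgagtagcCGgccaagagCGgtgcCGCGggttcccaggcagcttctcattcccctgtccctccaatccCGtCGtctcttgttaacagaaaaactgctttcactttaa

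Over the CpGs in capitals, the mean level per library was 0% to 10.5% in Cd27 and 92% to 96.4% in Apoc2, so that 250 bases with a like number of measured CpGs (4 and 5) were nearly free of methylation in a T cell gene and nearly full in a liver gene. Nlrp5 was at 70.3% to 84.1%. Function and level at the annotated start did not go together in every case. Ptprcap, a lymphocyte gene, was at 80.7% to 89.5%, and Olfr1033, a gene of the nose, at 5.84% to 11.2%. No RefSeq start was found for either symbol, though the RefSeq starts used here cover only part of the genes. These bases are therefore not known to be the promoters in use. In Gzma the 2 CpGs had a mean of 33.3% in WT replicate 1 and of 0% to 4.84% in the other libraries.

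Each library listed between 2597893 and 3445555 CpGs, covered by 43291086 to 67007186 reads, with a median of 5 to 11 reads per CpG. The median window without an island had 139 and 186 reads in the WT libraries, 161 and 142 in hSTAT5B, and 243 and 176 in hSTAT5BN642H. The lowest read number of a window was 15 in any library, while Gm10801, a repeat-rich locus, reached 387117 in hSTAT5BN642H replicate 2. Without molecular identifiers, several reads may come from 1 DNA molecule, and intervals of counting would be too narrow. The windows held 14979 distinct CpGs, with 3 to 60 measured CpGs per window (median 6) of a median of 39 in the sequence. Neighbouring starts shared CpGs in 145 windows, which are not independent measurements.

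The 2126 promoters were split between low and high levels. In each library, 37.9% to 39.3% of them were under 20%, 33.9% to 34.8% were at 80% or more, and 26.1% to 28.2% lay between. Over the mean of the 6 libraries the 3 classes held 817, 735, and 574 windows. In promoters with an island, 93.2% to 93.9% of the windows were under 20%, and the mean level was 6.29% to 6.65% per library. The mean level without an island was 47.5% and 47.9% in WT, 47.8% and 48.1% in hSTAT5B, and 48% and 48.1% in hSTAT5BN642H. The threshold of 3 CpGs touched this level: the 592 windows with 2 CpGs had means of 69.3% to 69.6% per library, and the 432 windows with exactly 3 CpGs had means of 62.4% to 63.1%.

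**Figure D1:**
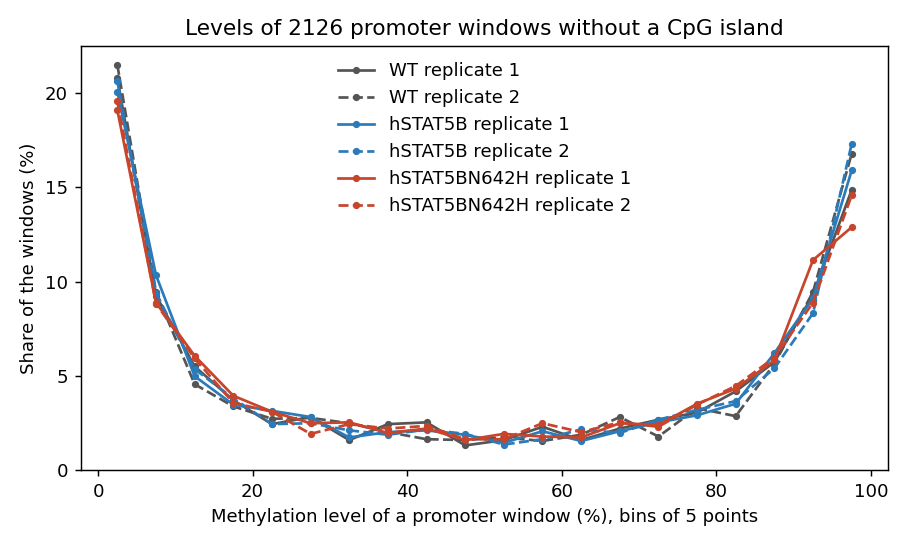
Share of the 2126 promoter windows without a CpG island (y axis, percent of windows) by methylation level (x axis, percent, in bins of 5 points), with 1 line for each of the 6 libraries. All 6 lines peak at both ends, with 37.9% to 39.3% of windows under 20% and 33.9% to 34.8% at 80% or more.

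The low levels lay at the gene start. CpGs 1000 to 901 bp before the start had a mean level of 70.5% over the 6 libraries, CpGs in the last 100 bp before it 27.8%, and CpGs in the first 100 bp of the gene 28.8%. From there the level climbed more slowly, to 50.3% at 900 to 999 bp into the gene. These means are over different windows at each distance. In 521 windows that held CpGs both within 200 bp and over 500 bp from the start, the near CpGs had means of 36.3% to 37.2% per library and the far CpGs 55.1% to 56%, and the near CpGs were lower in 345 to 362 of these windows.

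**Figure D2:**
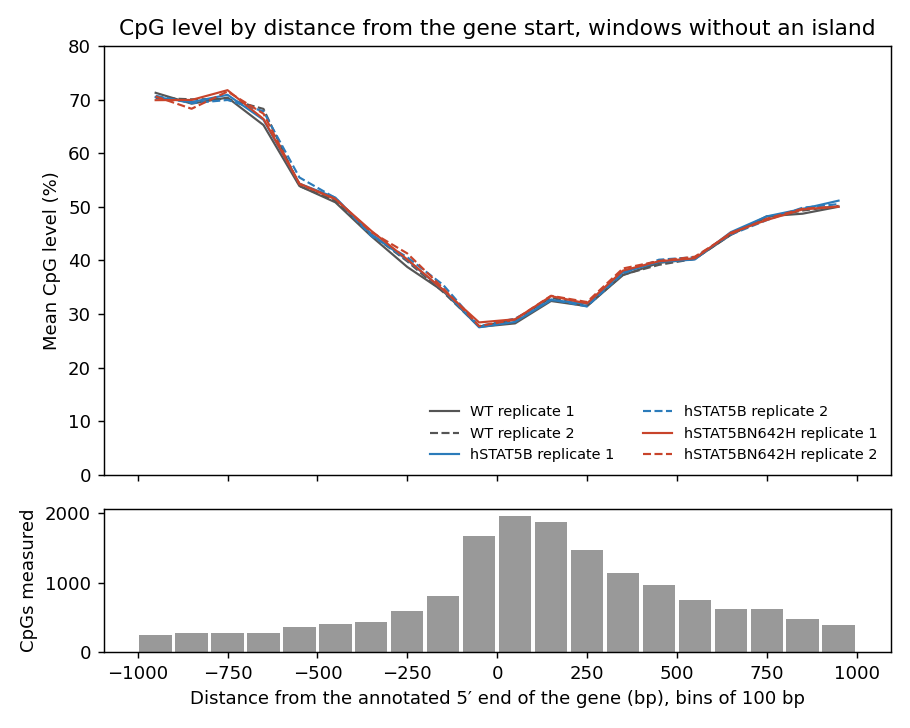
Mean CpG level (upper y axis, percent) and number of measured CpGs (lower y axis) by distance from the annotated 5′ end of the gene (x axis, bp, in bins of 100 bp), in windows without an island, with 1 line per library. The level falls from 70.5% at the far 5′ end to 27.8% just before the start and is at 50.3% at the 3′ end, and the 6 lines run close together.

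CpG density moved with the level within these promoters, although all of them fall short of an island. With the windows ordered by observed/expected CpG ratio into 4 equal groups, the median level was 85.7% in the group with the lowest ratios (0.0725 to 0.244), 69.2% and 32.4% in the groups that followed, and 6.43% in the group with the highest (0.409 to 0.944). Spearman's correlation of the ratio and the level across the 2126 windows was −0.506, a description over windows that share libraries and base composition. RRBS also measured more CpGs in the low class (median 8 per window) than in the middle class (5) and the high class (4).

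Sequence motifs in the 250 bases before to 50 bases after the start also differed by class. The motifs were searched on both strands as exact letters, and a match is a description and not a binding site. TATAAA, the core of a TATA box, was in 9.67% of the windows under 20%, in 11.5% of the middle class, and in 17.6% of those at 80% or more, against 12.7% of all 20807 starts. GGGCGG, a GC box, went the other way, with 41.4%, 26.7%, and 15.8%, against 43.7% of all starts. CACGTG, an E-box, was in 8.57%, 4.18%, and 4.22%, and TTCCGG, which ETS factors can bind, was in 24.6%, 16.7%, and 11.2%. TTCCGG holds CCGG, the site cut in RRBS, so that its share depends on which windows were measured. It was in 17.8% of the 2126 measured windows and in 6.85% of all 9116 windows without an island. For ACTTCC, the other ETS motif, the shares were 24.2%, 26.8%, and 22.7%, and for ACCACA, the RUNX motif, 15.8%, 15.3%, and 20%. TTCNNNGAA, the palindrome that STAT proteins bind, was in 10.5%, 10.6%, and 8.98%, against 8.01% of all starts. Most of the 20807 starts have an island (11691), so that they are not a like background. Among all 9116 starts without an island, measured or not, TATAAA was in 20.6%, GGGCGG in 14%, and TTCNNNGAA in 10.7%. CCAAT was in 41.5%, 33.4%, and 37.8%, and TGACGTCA, the cyclic AMP response element, in 2.08%, 1.74%, and 0.952%. The GC box, the E-box, the cyclic AMP response element, and the ETS motif TTCCGG each hold a CpG, and CpG density itself differed by class. A gene on the opposite strand started within 1000 bp in 10.6% of the low class, 2.96% of the middle class, and 0.680% of the high class.

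The annotated 5′ end need not be the start that a gene uses in T cells. For 1514 of the 2126 windows (71.2%) a RefSeq start of the same symbol was found, and 1140 windows had one within 100 bp of the annotated 5′ end, with a median level of 37.5%. In 193 windows whose RefSeq start was over 1000 bp away, the median was 75.6%. Another RefSeq start over 1000 bp away that has an island existed for 145 windows, whose median was 63.4%. Among the genes named below, Gata3, Zbtb7b, Zap70, Cbfa2t3, and Catsperd have such a start, so that these windows are not their only promoters. The nearest RefSeq start of Zbtb7b is 1398 bp from its annotated 5′ end. The RefSeq starts used here cover only part of the genes, so that a missing start may be a gap in them. No start was found, among others, for Itgb2, Itgal, Ly9, Selplg, Ccnd2, Cd6, Cd8b1, Icos, Arhgap9, Eid3, Usp14, and Gm49394. Their windows are not known to be the promoters in use.

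The promoters with at least 10 measured CpGs and the lowest levels belonged to genes that most cells use. Bpnt1, a nucleotide phosphatase of sulphur metabolism, was at 0% and 0% in WT, 1.01% and 1.14% in hSTAT5B, and 0% and 1.65% in hSTAT5BN642H. The others were Ppp2r3c, Nme1 with Gm20390, Cep128 with Tshr, and Nbr1 with Brca1, 3 pairs that each share all their measured CpGs, at 0% to 2.23% per library. Tshr, the thyrotropin receptor, and Brca1, a DNA repair gene, therefore have the values of a neighbour on the other strand. The highest were Klhl41, a muscle gene, Tuba3b, a testis tubulin, Usp14, and Gm49394, at 95.9% to 99.6% in every library. No RefSeq start was found for Usp14 or Gm49394, so that their windows are not known to be the promoters in use.

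Genes were then grouped by lists for lineages and tissues, and 16 lists were compared by the median over the genes' mean levels, beside a median of 42.9% over all 2126 windows. T cell surface and receptor genes (13 of 44 without an island measured) had a median of 15.5%, and T cell signalling and transcription genes (13 of 46) a median of 14.8%. Genes of antigen presentation and of the interferon response (15 of 66) were at 15.6%. Myeloid genes (11 of 83) were at 59.6%. Lists with few measured genes were the effector genes (5 of 34, median 26.5%), B cell genes (3 of 30, 26.9%), common gamma chain receptors and STAT5 targets (3 of 15, 3.14%), NK receptors (2 of 28, 81.8%), T helper genes (2 of 15, 84.4%), and erythroid and megakaryocyte genes (4 of 25, 85%). In contrast, liver genes (21 of 196) were at 90.9%, skin keratin and envelope genes (28 of 183) at 89.4%, gut and pancreas genes (10 of 100) at 89.2%, chemosensory receptors (21 of 1508) at 89.1%, germline genes (16 of 103) at 82.3%, and muscle genes (19 of 42) at 82%. RRBS reached few chemosensory receptors, so that the measured ones are not a sample of the family.

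**Figure D3:**
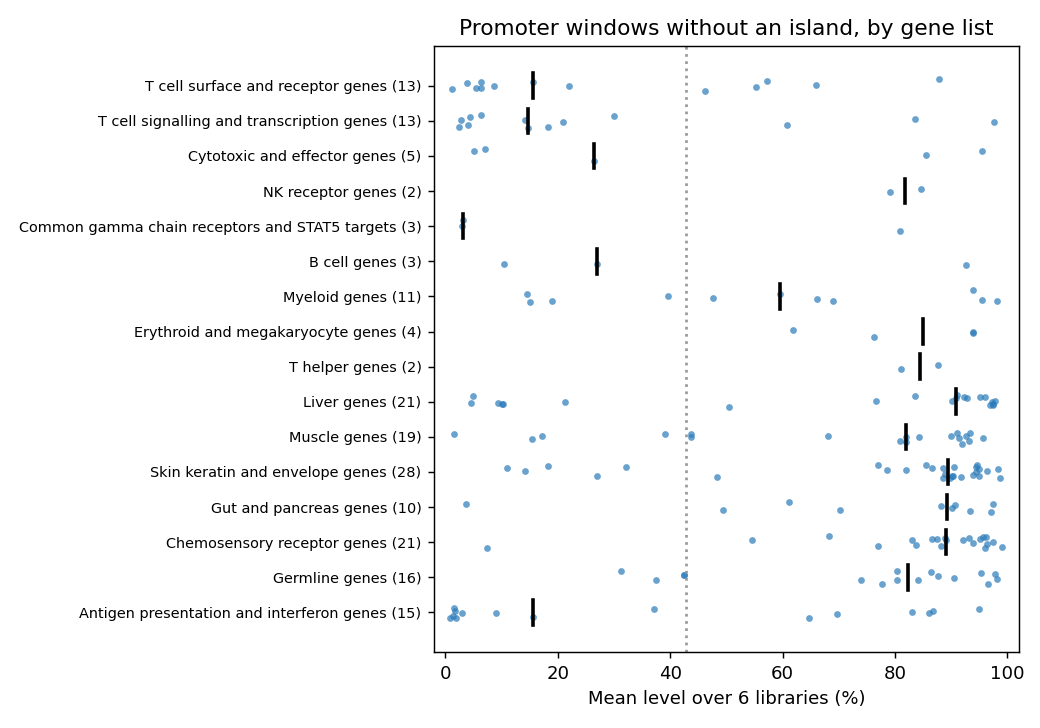
Mean level over the 6 libraries (x axis, percent) of each measured promoter without an island (points), by gene list (y axis, number measured in parentheses), with the list's median as a bar and the median of all 2126 windows, 42.9%, as a dotted line. T cell lists have medians of 14.8% and 15.5%, and liver genes have a median of 90.9%, with single genes far from the median in most lists.

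Among T cell surface genes, 7 of 13 windows were under 20% and 1 was at 80% or more. Itgb2, the common beta chain of leukocyte integrins, was at 0% and 2.86% in WT, 0% in both hSTAT5B libraries, and 4.44% and 0% in hSTAT5BN642H. Itgal, its partner in LFA-1, was at 1.16% to 6.29% over the 6 libraries, Cd27 at 1.22% to 8.10%, Selplg, the ligand of P-selectin, at 0% to 12.8%, and Ly9, a SLAM receptor, at 3.94% to 9.48%. These 5 genes thus stayed under 13% in every library. Cd48 (37.6% to 53.9%) and Cd2 (58.4% to 75.3%), adhesion partners on T cells, lay in the middle with overlapping genotypes. Ptprcap was the highest, at 83.9% to 91.6%, with its 7 CpGs 174 to 339 bp before the annotated start. No RefSeq start was found for Ptprcap, nor for Itgb2, Itgal, Selplg, Ly9, and Cd2. These windows are therefore not known to be the promoters of their genes.

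T cell signalling and transcription genes had 8 of 13 windows under 20%. Gata3, a transcription factor of T cells, was at 3.84% and 2.83% in WT, 1.07% and 2.32% in hSTAT5B, and 4.22% and 0.619% in hSTAT5BN642H over 17 CpGs. The nearest RefSeq start of Gata3 is 11434 bp from this 5′ end, and Gata3 has another start with an island. Dock2, a Rac activator of lymphocytes, was at 1.47% to 7.54%, and Gimap1, a GTPase of lymphocyte survival, at 2.56% to 8.33%. Lat, the adaptor of the T cell receptor, was the highest of the list, at 94.6% to 99.3%, followed by Gimap4, at 76.3% to 91.7%.

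Of the cytotoxic and effector genes, 5 of 34 were measured. Gzma was the lowest, with 15% and 6.00% in WT, 5.64% and 3.82% in hSTAT5B, and 0% in both hSTAT5BN642H libraries. Ltb, lymphotoxin beta, was at 3.36% to 15%, Ccl3, a chemokine, at 9.99% to 34.6%, Gzmm at 71.8% to 96%, and Gzmd, a granzyme of limited expression, at 90.3% to 99.6%. Il15ra, which presents IL-15, and Ccnd2, a D cyclin, had 1.84% to 4.48% and 0% to 6.72%, whereas Lif, a cytokine gene, was at 77.5% to 84.6%. These are the 3 measured genes of common gamma chain receptors and STAT5 targets. The T helper cytokine genes Il3 and Il13 were at 59.1% to 93.8% and 78.3% to 98.6%, and the NK receptor genes Klra8 and Klra3 at 71.3% to 85.9% and 78.8% to 93.6%.

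Interferon and antigen presentation genes fell into separate groups. Irf7, the regulator of type I interferon genes, was at 0% to 2.99%, H2-M3, an MHC class Ib gene, at 0.774% to 2.54%, and Irgm1, Gbp7, and Oas1c at 0% to 4.76%, so that these genes were nearly free of methylation in cells of all 3 genotypes. Ifitm6 (89.5% to 99.4%), Ifitm2 (76.4% to 94.4%), and H2-Eb2 (74.4% to 92.3%) were high. Igtp and Irgm2, 2 interferon-induced GTPases, were at 57.3% to 74.4%. The nearest RefSeq start is 15359 bp from the annotated 5′ end in Irgm2 and 1032 bp from it in Ifitm6. These 2 windows need not be the promoters of their genes.

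In the lists of other tissues, most members were high and a few were low. Apob (96.2% to 100%), Apoa4, and Apoa2, apolipoproteins of liver and gut, and Pck1, a gluconeogenic enzyme, were over 92% in every library. Cyp4f13 and Cyp2j6, cytochrome P450 genes that are not restricted to liver, were at 1.82% to 7.42% and 3.07% to 7.28%. In the muscle list, Mb, myoglobin, was at 93.8% to 98.9%, and Actn2, alpha actinin of the Z disc, was at 0.933% to 2.55% across all 6 libraries. In the skin list, Klk9, a kallikrein, was at 97.9% to 99.5% and Tgm1, the transglutaminase of the cornified envelope, at 7.77% to 14.3%. Cela1, a pancreatic elastase, was at 0.667% to 1.95% in 5 libraries and at 16% in hSTAT5B replicate 1. Olfr1033 was the only chemosensory receptor of 21 under 20%, and no germline gene of 16 was under 20%. Izumo1, a sperm protein that binds the egg, was at 96.3% to 99.6%, while Adam2, another sperm protein, was the lowest germline gene, at 28% to 34.5%.

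Genes that mark the cell type were measured in part. Cd8a, Cd3e, Cd3d, Cd3g, Cd247, Lck, Cd4, Cd79a, Ms4a1, Lyz2, and Itgam had no CpG that passed, so that the label could not be checked on them. Of the T cell markers, Cd6 was at 2.75% to 19% and Cd8b1 at 8.51% to 37.8%, whereas Cd5 was at 41.2% to 72.4% and Cd2 at 58.4% to 75.3%. The macrophage gene Adgre1 was at 94.9% to 100%, the neutrophil gene Mpo at 28.3% to 62.6%, and the CD4 lineage factor gene Zbtb7b was at 0.791% and 2.46% in WT, 0.672% and 1.62% in hSTAT5B, and 6.99% and 4.58% in hSTAT5BN642H. Cd79b, a B cell receptor chain, was at 24.3% to 30% with overlap only between WT and hSTAT5B. In these bulk samples, a change of level within cells and a change in the share of a cell type cannot be told apart.

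To ask whether the genotypes differ, the mean level over all windows was compared with exact permutation tests, 2-sided, for which 0.333 is the smallest p that 2 against 2 libraries allow. hSTAT5BN642H was at 48.1% ± 0.0993 (SD, n = 2) and WT at 47.7% ± 0.341 (SD, n = 2), a difference of 0.367 percentage points (exact permutation p = 0.333). hSTAT5B, at 47.9% ± 0.206 (SD, n = 2), was 0.214 points above WT (exact permutation p = 0.667) and 0.153 points under hSTAT5BN642H (exact permutation p = 0.667). The difference between hSTAT5BN642H and WT was close to the SD of the WT libraries. Promoters with an island were 0.298 points higher in hSTAT5BN642H than in WT (exact permutation p = 0.333), and the difference between the classes of promoter, 0.0694 points, was not detectable (exact permutation p = 1). In the comparisons of WT with each transgenic genotype the same WT libraries were used.

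Low and high windows differed in opposite directions. With the classes set by the libraries of the third genotype, the 827 low windows had means of 6.52% and 6.37% in WT and 7.39% and 7.32% in hSTAT5BN642H, and the 736 high windows had means of 92.1% and 93% in WT and 91.5% and 91.7% in hSTAT5BN642H. Low windows were thus 0.913 points higher in hSTAT5BN642H, high windows differed by −0.928 points, and the libraries of the genotypes did not overlap (exact permutation p = 0.333 for each class). The 563 windows of the middle class were 1.26 points higher (49.3% and 50.1% against 50.8% and 51.1%, exact permutation p = 0.333). Against hSTAT5B, hSTAT5BN642H was 0.977 points higher in low windows and lower in high windows, with a difference of −1.17 points, again without overlap (exact permutation p = 0.333 for each). Between hSTAT5B and WT the difference was −0.0630 points in low windows (exact permutation p = 0.667) and 0.257 points in high windows (exact permutation p = 1).

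For single windows the spread between mice set the limit. The libraries of a genotype differed by a median of 3.03 points in WT, 2.84 in hSTAT5B, and 2.78 in hSTAT5BN642H, and by 10 points or more in 244, 248, and 200 of the 2126 windows. The SD between replicates was largest for windows in the middle class, at 4.81 points, against 1.97 points in the low class and 2.82 points in the high class. Promoters with an island differed between replicates by medians of 0.939 to 1.10 points.

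In hSTAT5BN642H against WT, 160 of the 2126 promoters were at least 10 points apart without overlap between the libraries, 93 higher and 67 lower in hSTAT5BN642H. Over all 13106 promoters the same rule held for 1.18% higher and 0.633% lower, while the members are 7.53%, and promoters with an island 0.710%. Island promoters are mostly near 0% and spread less, so that the share of members is not a measure of a stronger change. limma on the log2 ratios of methylated to unmethylated reads, fitted on all 13106 windows, called 0 of 2126 members at an adjusted p under 0.05 (0% of all windows), with a smallest adjusted p of 0.802 and with 188 members at an unadjusted p under 0.05 (809 of all 13106 windows). The alternative test on read numbers, a quasi-binomial model whose dispersions were shrunk across windows, called 53 members (2.49%), 38 higher and 15 lower, beside 1.41% of all windows. Pooling the mice and applying Fisher's exact test, which leaves out the spread between them, called 300 members and 1453 of all 13106 windows. Limma on the mean levels called 0, with a smallest adjusted p of 0.0749 among members. The calls below are those of the quasi-binomial model, and limma made none of them.

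hSTAT5B against WT gave 98 members at least 10 points apart without overlap, 49 higher and 49 lower (4.61%), where all windows had 0.687% higher and 0.549% lower. limma called 0 members (0% of all windows, smallest adjusted p = 0.587, 172 members and 819 of all windows at an unadjusted p under 0.05). By the quasi-binomial model 8 members were called, 3 higher and 5 lower (0.376%), beside 0.282% of all windows, and 142 by Fisher's exact test after pooling (814 of all windows). In hSTAT5BN642H against hSTAT5B, 141 members were apart (6.63%), 82 higher and 59 lower, where all windows had 0.893% higher and 0.61% lower. Here limma also called 0 members (0% of all windows, smallest adjusted p = 0.744, 183 members and 791 of all windows at an unadjusted p under 0.05), while the quasi-binomial model called 38 members, 21 higher and 17 lower (1.79%), beside 1.05% of all windows, and Fisher's exact test after pooling called 272 (1349 of all windows).

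Cd8b1, which encodes the beta chain of the CD8 coreceptor, had the lowest quasi-binomial p of any T cell gene. Its window (chr6:71321788-71323788, plus strand) was at 37.8% and 37.8% in WT, 18.8% and 17.5% in hSTAT5B, and 8.51% and 11.8% in hSTAT5BN642H, with 349 to 399 reads per library. The 3 genotypes did not overlap, and WT was the highest. The difference from WT was −27.6 points in hSTAT5BN642H (adjusted p = 1.30e-10 in the quasi-binomial model, 0.802 in limma) and −19.6 points in hSTAT5B (adjusted p = 2.94e-07 in the quasi-binomial model, 0.587 in limma). hSTAT5BN642H and hSTAT5B did not differ past the threshold (adjusted p = 0.733 in the quasi-binomial model).

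The 6 measured CpGs of Cd8b1 all lie in an intron, 246 to 464 bp after the start, and are shown in capitals in their 260 bases (chr6:71323014-71323273, plus strand, GRCm38), printed because this window had the largest fall in hSTAT5BN642H among those with at least 5 CpGs, a choice made after the values were seen.
Cd8b1: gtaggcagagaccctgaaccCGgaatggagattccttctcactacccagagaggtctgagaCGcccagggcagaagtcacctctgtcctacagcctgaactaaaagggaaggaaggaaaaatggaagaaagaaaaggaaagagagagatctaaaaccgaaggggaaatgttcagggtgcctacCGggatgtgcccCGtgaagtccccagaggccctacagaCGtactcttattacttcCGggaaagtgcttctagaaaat
At each of these 6 CpGs both libraries of each transgenic genotype were under both WT libraries. Single CpGs were at 25% to 55.6% in WT, 7.08% to 29.5% in hSTAT5B, and 3.23% to 23.5% in hSTAT5BN642H. The start of Smyd1, a muscle gene on the opposite strand, is 555 bp away, and its window shares 4 of these CpGs, so that its own fall is the same measurement. Cd8a starts 50639 bp from Cd8b1 and had no measured CpG.

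Of the other signalling genes, the quasi-binomial model called Zap70 and Arhgap9 lower in hSTAT5BN642H than in WT, and limma called neither. Zap70 (chr1:36760798-36762798), the kinase recruited to the T cell receptor, was at 43.7% and 29.3% in WT, 27.9% and 12.6% in hSTAT5B, and 2.08% and 10% in hSTAT5BN642H over 3 CpGs from 88 bp before to 93 bp after the start (adjusted p = 8.25e-05 in the quasi-binomial model). Arhgap9, a signalling protein of blood cells, was at 46.1% and 21.1% in WT, 7.35% and 2.50% in hSTAT5B, and 4.14% and 3.85% in hSTAT5BN642H (adjusted p = 0.0244 in the quasi-binomial model). The WT libraries of Arhgap9 lay farther from each other than the lower of them lay from hSTAT5BN642H, and its 4 CpGs lie in coding sequence 164 to 272 bp into the gene.

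Rasal3, a Ras GTPase activating protein of T cells, was at 59.1% and 67.1% in WT, 76.5% and 68.4% in hSTAT5B, and 51.1% and 41.9% in hSTAT5BN642H, and was lower in hSTAT5BN642H than in either other genotype (adjusted p = 0.0333 against WT and 3.72e-04 against hSTAT5B in the quasi-binomial model). Cd6, a scavenger receptor that tunes T cell activation, was at 10.2% and 19% in WT, 4.03% and 7.77% in hSTAT5B, and 7.65% and 2.75% in hSTAT5BN642H (adjusted p = 0.0366 in the quasi-binomial model for hSTAT5BN642H against WT). Gzmm, a granzyme, was at 91.1% and 95.7% in WT, 84.1% and 96% in hSTAT5B, and 71.8% and 74.7% in hSTAT5BN642H (adjusted p = 5.13e-04 against WT in the quasi-binomial model). In Gzmm the hSTAT5BN642H libraries were under all others.

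Icos, the inducible costimulator, had 49.9% and 18.6% in WT, 6.98% and 2.78% in hSTAT5B, and 12.9% and 2.08% in hSTAT5BN642H, without overlap to WT, but the WT libraries lay far apart and neither limma nor the quasi-binomial model called it (adjusted p = 0.11 in the quasi-binomial model for hSTAT5BN642H). Cd5, an inhibitory receptor of T cells, was at 52.7% and 72.4% in WT, 53.3% and 69.7% in hSTAT5B, and 42.1% and 41.2% in hSTAT5BN642H. Itgae, the integrin chain CD103, was at 82.8% and 58.3% in WT, 25.6% and 33.3% in hSTAT5B, and 76.5% and 67.1% in hSTAT5BN642H. Only hSTAT5B was apart in Itgae. Each of these 3 windows rests on 3 CpGs in an intron.

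By list, 3 of 13 T cell surface genes and 5 of 13 T cell signalling genes were at least 10 points lower in hSTAT5BN642H than in WT without overlap, and 0 and 1 were higher, the 1 being Vav1. Of all 2126 windows, 67 were apart and lower, 93 were apart and higher, and 53 were called by the quasi-binomial model. The quasi-binomial model called 2 surface genes (Cd8b1 and Cd6) and 4 signalling genes (Zap70, Arhgap9, Rasal3, and Vav1, of which only Vav1 was higher), while limma called 0. The effector genes had 1 call, Gzmm, and a median of −4.60 points (1 of 5 higher, 4 lower). The median difference was −1.85 points in surface genes and −6.27 points in signalling genes, beside 0.17 over all 2126 windows, of which 1110 were higher and 1007 lower. For hSTAT5B against WT these medians were −1.43 and −1.64, beside 0.21, with 3 and 2 genes apart and lower, beside 49 of all 2126 windows. The lists were chosen with earlier results of these data known, so that these counts and medians are descriptions and not a test.

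Of the myeloid genes, 9 of 11 had a higher mean in hSTAT5BN642H than in WT (1110 of all 2126 windows), 4 were apart and higher (93 of all 2126), and 1 was called by the quasi-binomial model, with a median difference of 8.31 points. In hSTAT5B against WT, 8 of 11 had a higher mean (1111 of all 2126 windows), with a median difference of 3.93 points, beside 0.21 over all windows. There 1 myeloid gene was apart and higher and 1 apart and lower (49 and 49 of all 2126). Neither limma nor the quasi-binomial model called a myeloid gene in that comparison. The call in hSTAT5BN642H was Cd300a, an inhibitory receptor of myeloid and lymphoid cells, at 10% and 11.5% in WT, 23.2% and 18.6% in hSTAT5B, and 20.6% and 29.7% in hSTAT5BN642H. Mpo, myeloperoxidase of neutrophil granules, was at 28.3% and 44.5% in WT, 56.2% and 43.4% in hSTAT5B, and 62.6% and 50.7% in hSTAT5BN642H, and was not called. Fcgr4, an Fc receptor, was at 63.3% and 63.4% in WT, 75.6% and 61% in hSTAT5B, and 76.3% and 74% in hSTAT5BN642H, also without a call. The share of myeloid or other cells in the samples was not measured, and its part in these levels was not tested. The B cell genes Cd40, Cd79b, and Tnfrsf13b, 3 of 30, were all higher in hSTAT5BN642H by a median of 5.03 points, with none called by limma or the quasi-binomial model. NK receptor (median 3.46 points), common gamma chain (0.56), T helper (1.27), and erythroid genes (1.11) also had no call.

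In the lists of other tissues, no window was called in hSTAT5BN642H against WT by either limma or the quasi-binomial model. Median differences were −0.81 points in liver genes (9 higher, 12 lower), 0.86 in muscle genes (11 higher, 8 lower), −1.37 in chemosensory receptors (9 higher, 12 lower), −0.26 in germline genes (8 higher, 8 lower), and −1.47 in gut and pancreas genes (5 higher, 5 lower). Skin genes, most of which were highly methylated, had 24 of 28 lower and a median of −3.51 points, with 0 windows apart by 10 points. The direction is the one that high windows had as a class. Interferon and antigen presentation genes were 0.54 points higher (11 higher, 4 lower).

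The largest gain in hSTAT5BN642H against WT among windows with at least 5 CpGs was that of Eid3 (chr10:82865626-82867626), an inhibitor of EP300-type coactivators, at 50.8% and 51.8% in WT, 85.7% and 60% in hSTAT5B, and 95% and 100% in hSTAT5BN642H. Its 5 CpGs lie in coding sequence and had 6 to 13 reads each, and single CpGs spanned 0% to 92.3% in the WT libraries (adjusted p = 4.98e-04 in the quasi-binomial model). Nfam1 (chr15:83032306-83034306), a receptor with a signalling motif that is found on B cells and myeloid cells, was at 25.6% and 35.5% in WT, 24% and 46.6% in hSTAT5B, and 65% and 59% in hSTAT5BN642H over 8 CpGs. It was higher in hSTAT5BN642H than in WT (adjusted p = 3.05e-08 in the quasi-binomial model) and than in hSTAT5B (adjusted p = 8.69e-04 in the quasi-binomial model).

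Cbfa2t3, a corepressor of blood stem cells, was at 23.9% and 23% in WT, 31% and 23.3% in hSTAT5B, and 53.8% and 40.7% in hSTAT5BN642H (adjusted p = 7.97e-05 in the quasi-binomial model). 1700012B09Rik was at 28.4% and 31.5% in WT, 32.6% and 36.7% in hSTAT5B, and 51% and 59.3% in hSTAT5BN642H (adjusted p = 0.00366 in the quasi-binomial model). In both genes the hSTAT5BN642H libraries were above all others. Cd59a, an inhibitor of complement, and Slfn9, a Schlafen gene, were chosen after their values were seen because they had low p values. Cd59a was at 32.9% and 39.1% in WT, 40.1% and 27.7% in hSTAT5B, and 64.2% and 74.7% in hSTAT5BN642H (adjusted p = 6.53e-06 in the quasi-binomial model). Slfn9 was at 9.66% and 3.66% in WT, 16.3% and 19.3% in hSTAT5B, and 20.3% and 13.9% in hSTAT5BN642H over 25 CpGs, with WT under all others (adjusted p = 3.05e-08 for hSTAT5BN642H and 2.03e-07 for hSTAT5B in the quasi-binomial model).

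**Figure D4:**
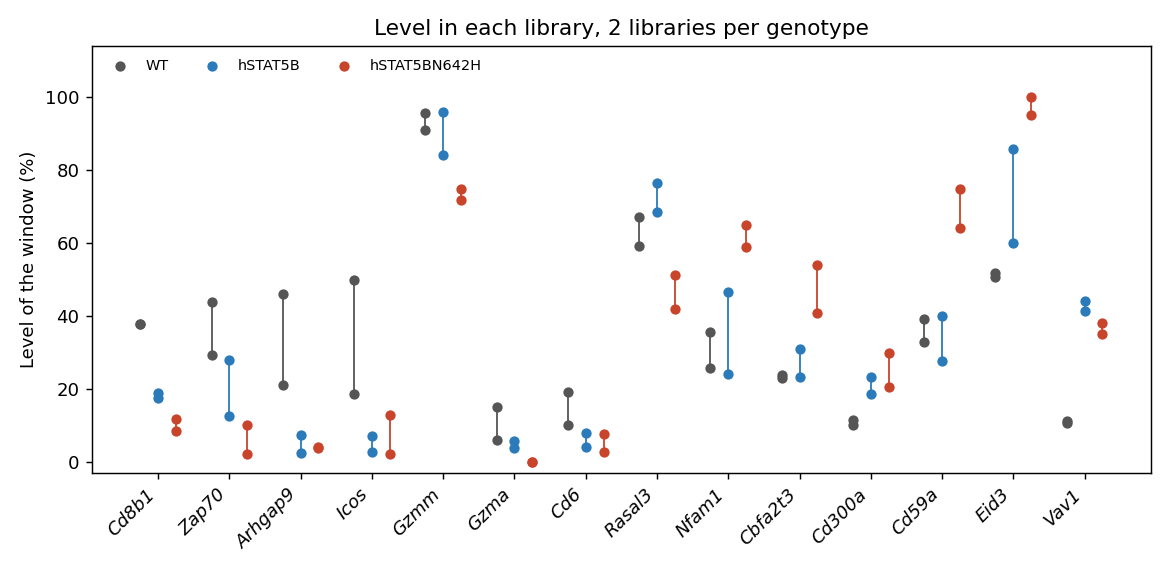
Level of 14 promoter windows without an island (y axis, percent) in each library, with 2 points per genotype joined by a line, for genes named on the x axis. The Cd8b1 libraries stand at 37.8% and 37.8% in WT, 18.8% and 17.5% in hSTAT5B, and 8.51% and 11.8% in hSTAT5BN642H, while the WT libraries of Arhgap9 and Icos lie far apart.

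The falls with at least 5 CpGs also held genes outside the T cell lists. Camk2a, a kinase of neurons, was at 80.6% and 78.2% in WT, 53.2% and 63.2% in hSTAT5B, and 59.1% and 50.7% in hSTAT5BN642H. Rgs8, a regulator of G protein signalling, and Pcdhga6, a protocadherin, had 18.7% and 41% in hSTAT5BN642H against 42.1% and 52.9% in WT for Rgs8 and 72.7% and 51% against 74.4% and 84.5% for Pcdhga6. The quasi-binomial model called none of these 3 genes (adjusted p = 0.084, 0.0953, and 0.0582), and limma called none (adjusted p of 0.804 to 0.837).

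In hSTAT5B against WT, Cpn1, a plasma carboxypeptidase of liver, was higher over 13 CpGs, at 36% and 40.1% in WT and 57.5% and 53.7% in hSTAT5B (adjusted p = 4.16e-05 in the quasi-binomial model). It was at 46% and 52% in hSTAT5BN642H and was called higher there too (adjusted p = 0.0129 against WT in the quasi-binomial model). Il34 (15.3% and 5.02% in WT, 25.7% and 33.8% in hSTAT5B), a ligand of the CSF1 receptor, and Gm14322 (15.9% and 14.5% in WT, 25.9% and 42.5% in hSTAT5B) were higher without overlap. Ccn3, a matrix protein (11.5% and 23.1% in WT, 3.17% and 1.79% in hSTAT5B), Slc5a4a, a sugar transporter gene (80% and 76.2%, against 68.3% and 60%), and Gm14419 (53.2% and 48.6%, against 28.3% and 41.9%) were lower without overlap. None of these 5 passed the quasi-binomial test. With at least 10 reads per CpG, the difference of Gm14419 turned to 13.2 points.

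In hSTAT5BN642H against hSTAT5B, the largest gain among windows with at least 5 CpGs was at Asb4, a substrate adaptor of ubiquitin ligases, with 7.70% and 10.7% in hSTAT5B and 48% and 47% in hSTAT5BN642H (adjusted p = 3.07e-16 in the quasi-binomial model). The WT libraries stood at 44.2% and 8.13%, 1 with each genotype, so that WT mice differed from each other by as much. BC016579 was at 38.8% and 28.3% in hSTAT5B and 55.4% and 57.1% in hSTAT5BN642H (adjusted p = 0.047 in the quasi-binomial model). Trim5, an antiviral gene, was lower, at 54.3% and 56.9% in hSTAT5B against 24.2% and 38.9% in hSTAT5BN642H (adjusted p = 0.0404 in the quasi-binomial model).

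Snurf, of the imprinted Snrpn locus, was at 72.6% and 65.1% in WT, 72.7% and 70.1% in hSTAT5B, and 58.4% and 52.8% in hSTAT5BN642H over 10 CpGs that it shares with Gm38393. It was lower in hSTAT5BN642H than in hSTAT5B (adjusted p = 0.00382 in the quasi-binomial model), and the difference from WT did not pass (adjusted p = 0.125 in the quasi-binomial model). Tdgf1, a Nodal coreceptor (43% and 34.5% in hSTAT5B, 30.7% and 14.6% in hSTAT5BN642H), was lower without a call. Catsperd, a sperm ion channel gene of the germline list, was at 52.9% and 50.5% in WT, 27.5% and 37% in hSTAT5B, and 28.8% and 28.2% in hSTAT5BN642H. In Catsperd both WT libraries were above the other 4.

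Vav1, a signalling protein of all blood cells, needs separate treatment because the transgene vector carries its promoter. Its window was at 11.2% and 10.5% in WT, 41.2% and 44.1% in hSTAT5B, and 35% and 38.1% in hSTAT5BN642H (adjusted p = 1.19e-06 for hSTAT5B and 0.0196 for hSTAT5BN642H against WT in the quasi-binomial model). The reads on it were 161 and 173 in WT, 2272 and 1823 in hSTAT5B, and 2747 and 1836 in hSTAT5BN642H. The transgenic libraries thus had over 10 times the reads of WT, and reads of the transgene and of the mouse gene cannot be told apart. The 3 CpGs within 100 bp of the start were at 0% to 12% in WT, 5.10% to 11.1% in hSTAT5B, and 1.03% to 6.71% in hSTAT5BN642H. The 2 CpGs in the intron, 837 and 872 bp after the start, were at 17.1% to 32% in WT on 25 to 35 reads, 87.5% to 96.6% in hSTAT5B on 293 to 336 reads, and 78% to 89.5% in hSTAT5BN642H on 228 to 318 reads. Most of the rise of this window lay at the intron CpGs. The start CpGs had means of 0% and 4% in WT, 7.81% and 9.27% in hSTAT5B, and 3.87% and 4.98% in hSTAT5BN642H.

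**Figure D5:**
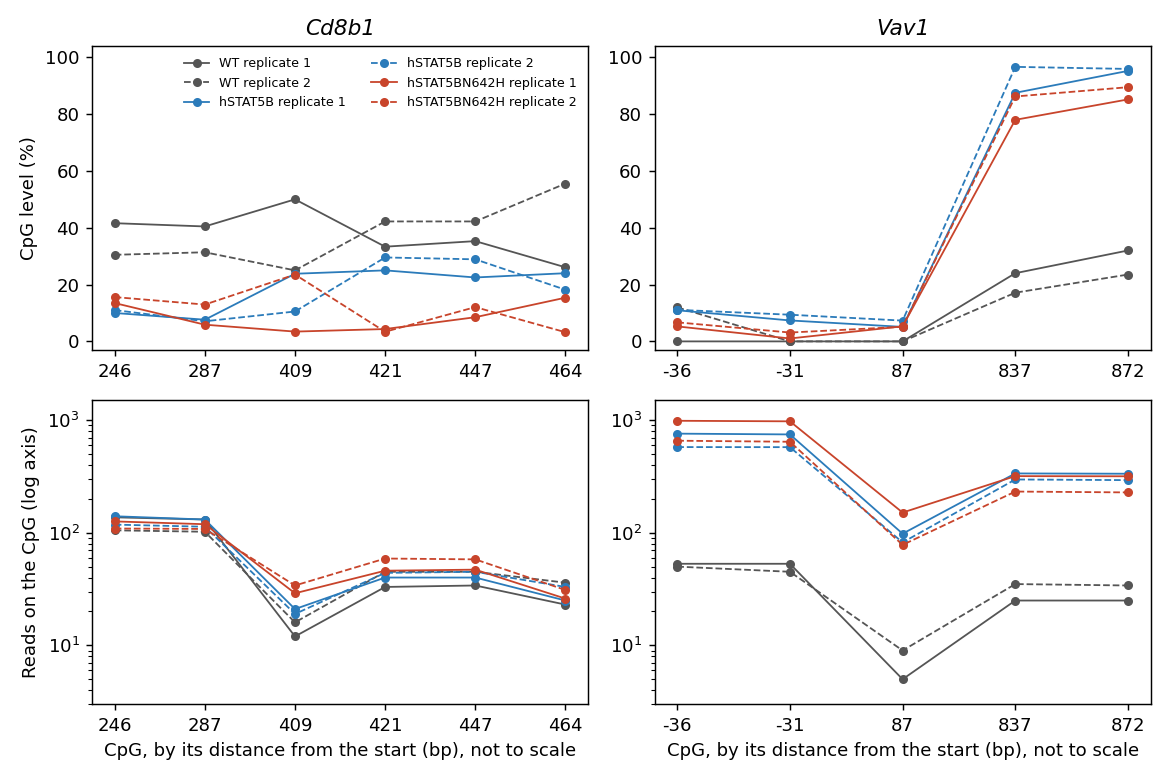
Level (upper y axes, percent) and number of reads (lower y axes, log scale) of each measured CpG of Cd8b1 (left) and Vav1 (right), by distance from the start (x axis, bp, evenly spaced and not to scale), with 1 line per library. At the 6 Cd8b1 CpGs the WT libraries are at 25% to 55.6% and lie above the transgenic ones on like numbers of reads, while the Vav1 CpGs at 837 and 872 bp are at 78% to 96.6% in the transgenic libraries, on more reads than in WT.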

How the data were processed

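RRBS libraries of CD8+ T cells from LNs, 2 per genotype, were analysed from the authors' processed files. Per the submitters' processing notes and the methods, the authors trimmed reads with Trimmomatic, aligned them with BSMAP to GRCm38 (mm10). Methylation at each CpG came from scripts of the authors. The deposited files give, per CpG, the count of methylated reads over the count of all reads, not normalized, and a score that the authors made from this share and that was used only to check the counts. Reads from the copies of a repeat, or from a transgene and its source gene, cannot be told apart.

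Islands were called on the genome sequence with repeats masked (CpG scored 17, any other base −1). A CpG needed 5 reads or more in each of the 6 libraries, and a window 3 such CpGs. Library means were compared by exact permutation tests, and windows by limma on log2((methylated + 1)/(unmethylated + 1)) in 1 model of all 6 libraries, adjusted over 13106 windows by Benjamini-Hochberg at 0.05. The scripts were tested on simulated data. Alternatives were 10 reads per CpG, 5 CpGs per window, 500 bp on either side, islands with repeats left in, pooled reads, very deep CpGs left out, a quasi-binomial model (dispersions shrunk with limma), pooling with Fisher's exact test, limma on mean levels, with a trend, with an offset of 0.5, on the compared genotypes, or on windows without an island, a replicate block, and each library left out. Each library is from 1 mouse. The p-values of the permutation tests and of limma weigh a difference against the spread between these mice, and Fisher's exact test leaves this spread out. In the quasi-binomial model the dispersions are shrunk across windows. Its p can therefore be small where mice of 1 genotype lie far apart, as the WT mice do at Asb4.

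Genes were named if they were members of the 16 lists, starting with the lowest and highest of each, if they had the 5 largest rises or falls per comparison without overlap (at least 5 CpGs and 10 points), if they were among the 8 lowest or 4 highest windows with at least 10 CpGs, or if called by limma. Vav1 was added as the transgene's promoter. Members and lists were chosen with earlier results of these data known. Sequences are shown for members with at least 3 measured CpGs from 250 bases before to 50 after the start. Models ran in R 4.3.3 with limma 3.58.1, and other steps in Python 3.11.15 with pandas 2.3.3, numpy 2.4.6, and scipy 1.17.1. Plots were drawn with matplotlib 3.10.9. Versions of the authors' tools are not given in the sources used here.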

Additional observations from a re-analysis of the deposited data

How the results depend on the processing

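The 0 calls of limma in each comparison stayed 0 in every other limma model that was run, among them limma on mean levels, with a trend, on only the windows without an island, and with each library left out. Some models came closer to a call. For hSTAT5BN642H against WT the smallest adjusted p among members was 0.0749 in limma on mean levels and 0.384 with a trend, against 0.802 in the main model. Limma on mean levels had 297 members at an unadjusted p under 0.05 (889 of all 13106 windows). Other tests made calls. For hSTAT5BN642H against WT, hSTAT5B against WT, and hSTAT5BN642H against hSTAT5B, the quasi-binomial model called 53, 8, and 38 windows and Fisher's exact test after pooling 300, 142, and 272, a test that leaves out the spread between mice. The counts of windows at least 10 points apart without overlap, 160, 98, and 141, fell to 101, 51, and 88 with at least 10 reads per CpG (1562 windows left) and to 78, 45, and 67 with at least 5 CpGs per window (1358 windows left). With 1 library left out they rose to between 191 and 272, between 158 and 207, and between 198 and 252, since fewer libraries can overlap.

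The mean difference of hSTAT5BN642H from WT was between 0.335 and 0.627 points under the other settings and between 0.127 and 0.608 with 1 library left out. With 1 library left out, that of hSTAT5B from WT ranged from −0.0267 (without WT replicate 1, reversed) to 0.455, and that of hSTAT5BN642H from hSTAT5B from 0.00798 to 0.299. With windows of 500 bp on either side the latter was 0.376. The difference between promoters without and with an island, 0.0694 points, ranged from −0.130 (without WT replicate 1, reversed) to 0.268 with 1 library left out, and was 0.376 with 500 bp on either side. The cause was not tested. For named genes, 191 of 201 alternatives moved the difference by less than the spread between replicates, 9 moved it by more, and 1 reversed it, which was Gm14419 in hSTAT5B against WT, at 13.2 points with 10 reads per CpG. Of 30 differences of named genes, 21 could still be measured at that depth. Most of the 201 alternatives could not have come out otherwise. With 1 library left out, a mean cannot shift by more than the spread between its replicates. Named genes already met the higher minimum of CpGs per window, so that this setting left their differences unchanged. Only 10 reads per CpG and pooled reads could move a difference by more. The count of 191 is therefore not a measure of stability. Leaving out Vav1 and the deepest repeats, a choice made after seeing the data, gave a difference of 0.357 points between hSTAT5BN642H and WT, and 159 windows apart in this comparison and 97 in hSTAT5B against WT.

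The labels number the replicates of each genotype, but the numbers do not pair the mice. The deviations of same-numbered libraries had correlations of −0.0416, 0.0190, and 0.00823. With a replicate block the mean differences were 0.367, 0.214, and 0.153 points. The block could not change these values, since each genotype has both replicate numbers. With the block limma called 0 windows in each comparison.

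With 2 libraries per genotype, 3 to 60 CpGs per window, and 18.1% of the CpGs of a window measured, a window can stand for a small stretch of a promoter, and differences within the replicate spread were not detectable.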

Other observations

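Some windows outside the lists and the largest changes were called by the quasi-binomial model, and were chosen after their values were seen. Plaur, the urokinase receptor, was at 6.50% and 8.61% in WT, 5.02% and 5.89% in hSTAT5B, and 17.4% and 13.6% in hSTAT5BN642H (adjusted p = 0.0011 in the quasi-binomial model against WT). Ccdc9b was at 17.6% and 17.6% in WT, 23.5% and 20% in hSTAT5B, and 37.8% and 41.4% in hSTAT5BN642H. Hfe, a regulator of iron uptake, was at 0% and 0.725% in WT, 4.94% and 5.88% in hSTAT5B, and 10.7% and 17.5% in hSTAT5BN642H, in an order without overlap. Foxh1, a partner of SMAD proteins, was at 47.2% and 55%, 66.5% and 71.7%, and 87.4% and 85% in the same order of genotypes. Impact, an imprinted gene, went down to 1.94% and 0.386% in hSTAT5BN642H from 5.77% and 12.7% in WT, with 15.4% and 0.960% in hSTAT5B.

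The median level of windows without an island also differed between chromosomes. It was lowest on chromosome 13, at 14.4% over 78 windows, and highest on chromosome 16, at 75.9% over 58 windows. These are values over genes that share clusters and sequence, and no test was made.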
